A study of Rattus norvegicus with 10 samples.

Results

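The miR-34 and miR-449 families are small groups of microRNAs (miRNAs), short RNAs that repress messages they pair with. Their members were taken as every mature miRNA of the count files whose name begins with rno-miR-34a, rno-miR-34b, rno-miR-34c, rno-miR-449a or rno-miR-449c, which gave 10 of the 723 mature miRNAs listed. The families were chosen because of their values in 1 library, so the levels in that library are given as a description, and fits that include it are printed with nothing read from them for the members that chose it. The data are small RNA libraries of female Wistar rats with collagen-induced arthritis (CIA), an autoimmune joint disease raised by immunization with bovine type II collagen in adjuvant, and every group shares this disease. The 5 groups hold 2 libraries each. CIA_B was sampled before any therapy, MS_E and MS_A at 1 h and 34 days of mechanical stimulation with a needle that was inserted and twirled (acupuncture in the labels), and PLA_E and PLA_A at 1 h and 34 days of placebo, a peritoneal injection of saline. The age of the animals is not given in the sources used here. The labels name the tissue muscle below the epidermis, the paper describes subcutaneous tissue around the stimulated points that includes subcutaneous muscle, and the design text of the series also mentions blood. Nothing states whether the libraries of a group come from separate animals, so p-values measure only the spread between these libraries, which may be technical.

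A miRNA finds its targets mainly through its seed, bases 2 to 8 of the mature strand, and miRNAs with the same seed share many predicted targets. miR-34a is transcribed from its own locus, is a classical direct target of the transcription factor p53 and slows the cell cycle in many tissues. miR-34b and miR-34c come from 1 transcript, and they and miR-449 are known above all from multiciliated epithelia, such as airway and oviduct, and from male germ cells, where their functions overlap.

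The mature strands are shown because the shared seed is what joins the families. All 10 members matched a mature sequence of the RefSeq table of 693 rat miRNAs (build GRCr8), and the seed is in capitals.
rno-miR-34a-5p: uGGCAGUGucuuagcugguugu
rno-miR-34b-5p: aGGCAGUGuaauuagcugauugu
rno-miR-34c-5p: aGGCAGUGuaguuagcugauugc
rno-miR-449a-5p: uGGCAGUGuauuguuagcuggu
rno-miR-449c-5p: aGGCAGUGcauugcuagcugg
rno-miR-34b-3p: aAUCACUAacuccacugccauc
rno-miR-34c-3p: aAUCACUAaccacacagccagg
The 5 members of the 5p arm share 1 seed, and no other of the 693 mature miRNAs carries it. The 3p arms of miR-34b and miR-34c share a different seed, again with no other miRNA of the table. miR-34a-5p and miR-449a-5p had the same base at 15 of 22 positions. miR-34b-5p and miR-34c-5p differ at only 2 of 23 positions, A11G and U23C (the base of miR-34b-5p first, positions counted from 1 at the 5′ end), so a misread read could be counted for the wrong one, and the miR-34b-5p values are uncertain to that extent.

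The hairpins lie at 3 places of the genome (GRCr8, RefSeq annotation). Mir34a lies at chr5:165815952-165816053 on the plus strand, inside the lncRNA gene LOC103692514. Mir34c (chr8:60306091-60306167) and Mir34b (chr8:60306609-60306692) lie on the minus strand with 441 bases between them, Mir34c inside the span of Hoatz, a gene of cilia and flagella, and Mir34b overlapping the edge of that span. Mir449c (chr2:46402375-46402473) and Mir449a (chr2:46403910-46404000) lie on the plus strand with 1436 bases between them, both inside the lncRNA gene LOC134485839. The files themselves were made on rn4, and these coordinates were not used to count reads.

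The authors counted reads per miRNA, and the libraries held 1513799 to 8926170 such reads. Levels are given below as cpm, counts divided by library size (in units of 1000000 reads) and scaled by TMM factors of edgeR that ranged from 0.675 to 1.41. A count of 3, used here as the floor, corresponds to 2.60 cpm in CIA_B replicate 1, the shallowest library, and to 0.366 to 0.828 cpm in the other 9. Floors and intervals account for counting error alone, because reads amplified by PCR are not separate molecules. The muscle miRNA miR-1-3p divided every group into a library with more of it (80400 to 122962 cpm) and a library with less (10115 to 15564 cpm). The libraries with less miR-1-3p were CIA_B replicate 2, MS_E replicate 1, PLA_E replicate 2, MS_A replicate 1 and PLA_A replicate 2. The muscle miRNA miR-206-3p followed this division in every group. miR-133a-3p followed it in CIA_B, MS_E and MS_A, but ran the other way in PLA_E (70505 cpm in replicate 1, 118939 in replicate 2) and PLA_A (89171 and 139360 cpm). The division was therefore not read as muscle content. MS_E replicate 1 stood apart from all others in the members described next, so results on the members that rest on it are given with and without it.

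Of the 8 arms of miR-34b, miR-34c and miR-449, 6 stood far above every other library in MS_E replicate 1, and miR-34a did not. miR-34c-5p had 9693 reads in MS_E replicate 1 and 43 in MS_E replicate 2, 0 and 71 in CIA_B, 74 and 41 in MS_A, 59 and 54 in PLA_E, and 52 and 75 in PLA_A. As levels these were 1496 cpm in MS_E replicate 1, 0 cpm in CIA_B replicate 1, which allows up to 2.60 cpm, and 5.0 to 17.6 cpm in the other 8 libraries. The 1 library thus held 95.4% of all miR-34c-5p reads, and its level was 85.2 times that of the next highest library, MS_A replicate 1. miR-449a-5p, which carries the same seed from another chromosome, had 1674 reads in MS_E replicate 1 and 8 in MS_E replicate 2, 1 and 10 in CIA_B, 4 and 15 in MS_A, 27 and 5 in PLA_E, and 7 and 9 in PLA_A. Its level of 258 cpm was 71.4 times that of the next highest library, PLA_E replicate 1, at 3.62 cpm. Scaled by library size alone, without TMM factors, these ratios were 63.7 for miR-34c-5p and 36.7 for miR-449a-5p. Both miRNAs were thus near the floor or low in 9 libraries and abundant in the tenth.

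miR-34b, made from the same transcript as miR-34c, showed the same division on both arms. miR-34b-5p had 455 reads (70.2 cpm) in MS_E replicate 1, and 1, 2, 0, 0, 0, 1, 1, 3 and 2 reads in CIA_B replicates 1 and 2, MS_E replicate 2, PLA_E replicates 1 and 2, MS_A replicates 1 and 2 and PLA_A replicates 1 and 2. In the same order miR-34b-3p had 260 reads (40.1 cpm) in MS_E replicate 1 against 0, 4, 8, 4, 2, 2, 2, 1 and 3. The passenger strand miR-34c-3p had 100 reads (15.4 cpm) there against 0, 0, 1, 4, 0, 2, 0, 1 and 2. No library other than MS_E replicate 1 exceeded 8 reads of any of these arms. miR-449c-5p had 92 reads (14.2 cpm) in MS_E replicate 1, 1 read in MS_A replicate 1 and 0 in the other 8 libraries. miR-449a-3p was seen as 1 read of MS_E replicate 1, and miR-449c-3p was at 0 in all 10 libraries.

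Set against the other 9 libraries pooled, the ratio of levels in MS_E replicate 1 was 151 for miR-34c-5p (95% exact counting interval 138 to 166) and 142 for miR-449a-5p (115 to 179). It was 333 for miR-34b-5p (179 to 699), 73.1 for miR-34b-3p (48.8 to 114) and 73.1 for miR-34c-3p (38.2 to 157). For miR-449c-5p, with 1 read outside this library, the ratio of 673 has an interval of 118 to 26858 and is hardly bounded above. The p53 target miR-34a-5p had a ratio of 1.24 (1.08 to 1.41), and its 42.3 cpm in MS_E replicate 1 was 0.592 times its highest level elsewhere (0.448 to 0.623 under other scalings and precursor sums). The interval covers counting error alone. The ratio of 1.24 was taken with TMM factors only, so its direction under another scaling is not given. miR-34a-3p had at most 2 reads in any library. Of 359 miRNAs tested in the fits described below, 60 (16.7%) were highest in MS_E replicate 1, so being highest there was in itself common.

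**Figure D1:**
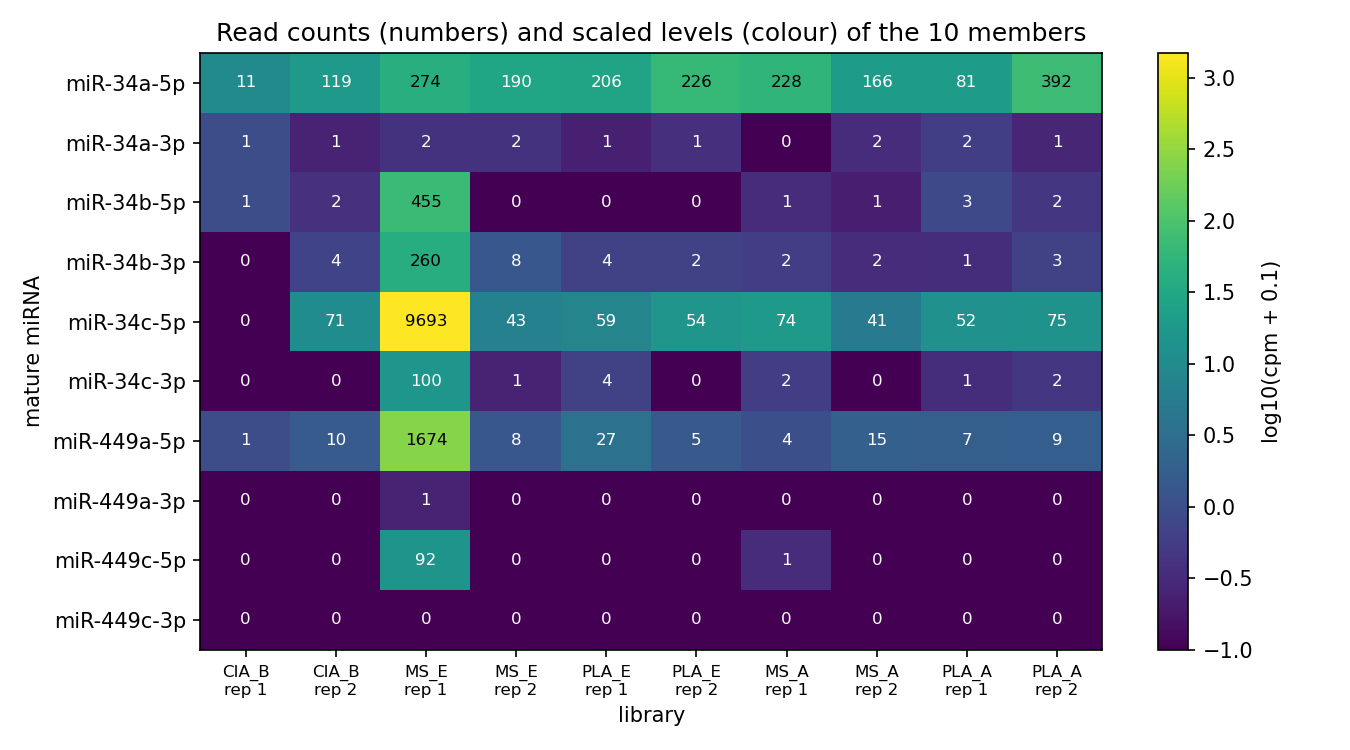
Reads of the 10 members (rows, mature miRNAs) in the 10 libraries (columns), with the read count printed in each cell and the colour giving log10(cpm + 0.1). miR-34a-5p was counted in every library, from 11 to 392 reads, whereas the miR-34b, miR-34c and miR-449 arms stood out in MS_E replicate 1, where miR-34c-5p reached 9693 reads.

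The make-up of the reads could be compared between MS_E replicate 1 and the rest. Of the reads on the 6 arms of miR-34b, miR-34c and miR-449 that passed 3 counts in some library, miR-34c-5p held 79.0% of 12274 in MS_E replicate 1 (exact 95% interval 78.2 to 79.7) and 77.9% of 602 in the other 9 pooled (74.4 to 81.2). miR-449a-5p held 13.6% (13.0 to 14.3) and 14.3% (11.6 to 17.3). Single libraries spread more widely than these pooled shares, from 62.8% to 88.5% for miR-34c-5p and from 4.76% to 28.7% for miR-449a-5p over 8 libraries with CIA_B replicate 1 (2 reads) left aside, and MS_E replicate 1 lay within both ranges. The shares of miR-34b-5p were 3.71% (3.38 to 4.06) and 1.66% (0.799 to 3.03), and those of miR-34b-3p were 2.12% (1.87 to 2.39) and 4.32% (2.84 to 6.26). Over the same 8 libraries they ran from 0% to 4.69% and from 1.56% to 13.3%, and MS_E replicate 1 again lay within both ranges. The 5p arm made up 63.6% of the 715 miR-34b reads in MS_E replicate 1 (60.0 to 67.2) and 27.8% of the 36 reads elsewhere (14.2 to 45.2). For miR-34c it made up 99.0% and 97.9%, and for miR-34a 99.3% in both. The miR-34b arms had at most 8 reads in any of the other 9 libraries, so their spread between libraries is poorly known, no difference in arm use is drawn from them, and miR-34b-5p is nearly identical to the abundant miR-34c-5p.

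Because the 5 members of the 5p arm share a seed, their levels can be added. The sum was 1881 cpm in MS_E replicate 1. In the other 9 libraries it had a lowest value of 11.2, a median of 37.6 and a highest value of 87.1 cpm. miR-34a-5p made up 56.6% to 84.6% of these reads in the 9 libraries and 2.25% in MS_E replicate 1 (exact 95% interval 1.99 to 2.53). The miR-34c-5p reads per miR-34a-5p read were 35.4 in MS_E replicate 1 and 0 to 0.642 elsewhere. The reads with this seed were thus mostly miR-34a in 9 libraries and mostly miR-34c in the tenth.

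**Figure D2:**
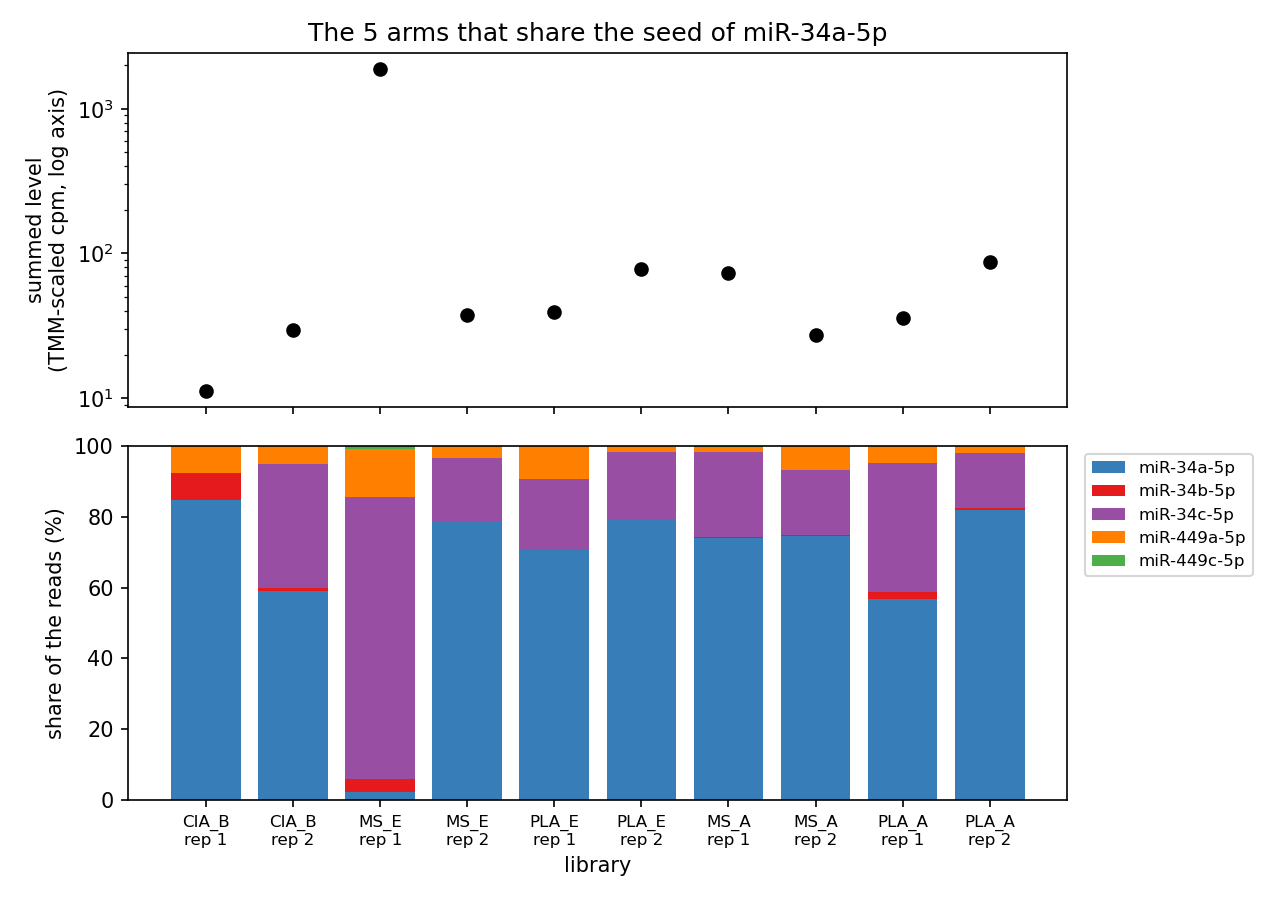
Upper panel, summed level (TMM-scaled cpm, log axis) of the 5 arms with the shared seed in each of the 10 libraries (points). Lower panel, percent of those reads from each arm (stacked bars); miR-34a-5p held the largest share in 9 libraries and miR-34c-5p in MS_E replicate 1, where the sum was 1881 cpm.

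Other miRNAs moved with these members in MS_E replicate 1, and their part in the result was not tested. All 8 names of a list of epithelial miRNAs (the miR-200 family, miR-141, miR-429 and the miR-183 cluster) were in the files, and 7 of 8 had their highest level in this library, miR-182 being the exception. The list summed to 656 cpm there and to 93.0 to 616 cpm in the other 9. miR-141-3p was at 220 cpm in MS_E replicate 1 and 1.73 to 26.6 cpm elsewhere, and miR-200b-3p at 34.1 cpm against at most 2.28 cpm. The epidermal miR-203a-3p and miR-205 summed to 138 cpm against 28.6 to 111 cpm. No list of ciliated cell miRNAs other than the members was used here.

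The 6 skeletal muscle miRNAs, miR-1, miR-206, miR-133a, miR-133b, miR-499 and miR-208b, summed to 83950 cpm in MS_E replicate 1, the lowest of the 10 libraries, against 92147 to 268617 cpm, and none was at 0. The labelled tissue was thus present by its markers in every library. Of 6 leukocyte names 5 were matched (miR-155-5p was not), and they summed to 3401 cpm in MS_E replicate 1 against 1638 to 14583 cpm, the highest in PLA_A replicate 1. Of 3 erythroid names 2 were matched (miR-486 was not), and they summed to 84.4 cpm against 14.7 to 55.6 cpm.

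Outside the families 359 miRNAs, by coincidence as many as were tested, had at least 10 reads in MS_E replicate 1. Of these 80 were above their highest level elsewhere, 15 of them by over 4 times and 8 by over 10 times, and another 4 had no read elsewhere. The 5 largest ratios to the next highest library were those of miR-202-5p, a miRNA known from gonads, with 4976 reads against 1 read in the other 9 libraries together, miR-871-3p with 6414 against 4, miR-883-3p with 85 against 1, miR-463-5p with 104 against 3 and miR-135a-5p with 79 against 3. miR-871, miR-883 and miR-463 belong to a dense cluster on chromosome X that is best known from testis, while the labels give all 10 libraries as female. Whether MS_E replicate 1 holds RNA of the labelled tissue and animals alone was not tested, and its values for the members are read with that limit.

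Since that cluster had been noticed from its values, it was listed by position, as a description. The 13 hairpins from Mir743b to Mir465 span 43.7 kb of chromosome X (GRCr8) and give 25 mature miRNAs in the files. Those 25 had 6706 reads (1035 cpm) in MS_E replicate 1, of which miR-871-3p alone gave 6414, and 61 reads in the other 9 libraries together, where their sum was 0 to 4.22 cpm. In MS_E replicate 1, 9 of the 25 exceeded 3 reads, and 14 were at 0. Among those at 0 were miR-743b-3p, miR-881-3p and miR-741-3p, which had 18, 14 and 7 reads in the other libraries, while the other arms miR-743b-5p and miR-741-5p had 16 and 7 reads in MS_E replicate 1 against 4 and 0. Of the 13 hairpins, 8 had an arm over 3 reads there, and 7 of the 14 arms at 0 were at 0 in all 10 libraries. The 2 arms of miR-202 had 5044 reads in MS_E replicate 1 and 1 read elsewhere. The part of these miRNAs in the result on the members was not tested. miR-34c-5p had 1.51 reads for each read of miR-871-3p in MS_E replicate 1 and 117 in the other 9 libraries pooled, where miR-871-3p had 4 reads in all.

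**Figure D3:**
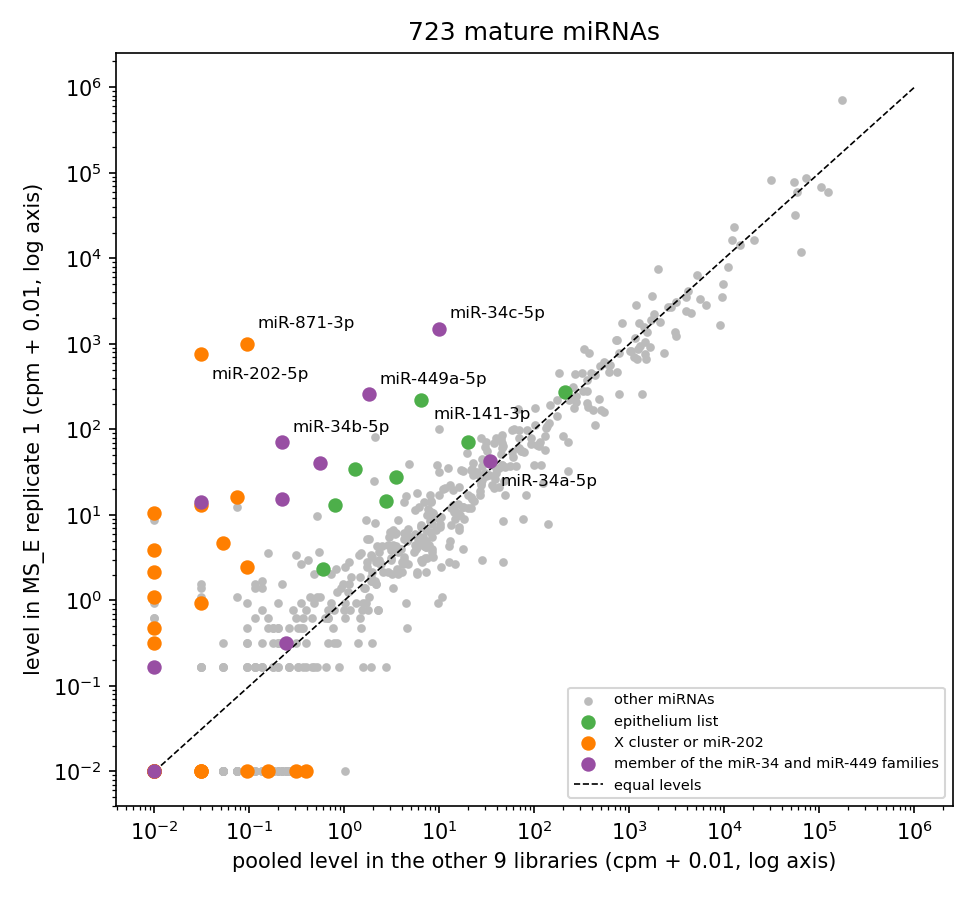
Levels of the 723 mature miRNAs in MS_E replicate 1 (vertical, cpm + 0.01, log axis) against the pooled level in the other 9 libraries (horizontal, cpm + 0.01, log axis); colours mark the family members, the epithelial list, and the chromosome X cluster with miR-202. miR-34a-5p lies near the dashed line of equal levels, and miR-34c-5p, miR-449a-5p, miR-871-3p and miR-202-5p lie far above it.

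Differences between groups were fitted with the quasi-likelihood test of edgeR over 359 miRNAs, those that reached 1 cpm in 5 or more of the libraries. For this filter alone, cpm was taken by library size without TMM factors. Of the members, 3 passed the filter, miR-34a-5p, miR-34c-5p and miR-449a-5p, and the other 7 did not and were not tested. A miRNA was called by the study's own rule, more than 2-fold change together with p under 0.05 before adjustment. In edgeR no miRNA had an adjusted p under 0.05 in any of the 6 comparisons of groups or in the interaction (2 to 27 had an unadjusted p under 0.05), nor did any in limma-voom (1 to 22 unadjusted), while DESeq2 gave 8 in MS_E against CIA_B, 2 each in PLA_A against CIA_B, MS_E against PLA_E and MS_A against PLA_A, and 0 in the others. Each call below is therefore an unadjusted one in edgeR. In MS_E against CIA_B 6.41% of all miRNAs were called, 2 of the 3 tested members among them, both higher. The log2 fold change was 6.87 (standard error 2.13) for miR-34c-5p and 6.31 (standard error 1.83) for miR-449a-5p. Standard errors of edgeR fits are approximate here, back-calculated as the size of the log2 fold change divided by the square root of the test's F statistic. Without CIA_B replicate 1 miR-34c-5p was at 6.15 and not called, and without CIA_B replicate 2, the only CIA_B library with a miR-34c-5p read, it was at 10.9, a fitted value against no read. In MS_E against PLA_E, where 3.9% of all miRNAs were called, both were again called higher, by 6.01 and 5.47 on the log2 scale. Without PLA_E replicate 2 neither was called there (6.59 and 5.11), and without PLA_E replicate 1 miR-34c-5p was not (5.62). Under limma-voom neither was called in either comparison (4.57 and 3.25 for miR-34c-5p, 3.67 and 2.84 for miR-449a-5p), and DESeq2 called both in both.

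Without the filter on low counts 6 members were called in each of these comparisons and 4 in the interaction, beside 6.56%, 5.01% and 2.59% of all miRNAs. These calls rest on the library that the choice of members used, and nothing is read from them. Without MS_E replicate 1 the log2 fold change of MS_E over CIA_B was 0.03 (standard error 1.66) for miR-34c-5p and -0.10 (standard error 0.70) for miR-449a-5p, and over PLA_E it was -0.78 and -0.91. No member was called in any comparison without that library, where 4.46% of all miRNAs were called in the first and 1.95% in the second. In the interaction, the change from 1 h to 34 days under stimulation less that under placebo, 3.34% of all miRNAs were called, miR-34c-5p (-6.25) and miR-449a-5p (-5.67, both log2) among them. Under limma-voom, or with the replicate number as a term of the fit, neither was called. Without MS_E replicate 1 the interaction values of miR-34c-5p and miR-449a-5p were 0.50 and 0.73, again with MS_E as 1 library.

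Among the groups other than MS_E, neither miR-34c-5p nor miR-449a-5p was called. miR-34c-5p was at 0 and 10.4 cpm in CIA_B, 7.91 and 14.9 cpm in PLA_E, 17.6 and 5.0 cpm in MS_A, and 13.0 and 13.7 cpm in PLA_A, and each of these groups overlapped with at least 1 other. Its log2 fold change over CIA_B was 0.86 for PLA_E, 0.84 for MS_A and 1.09 for PLA_A, with standard errors of 1.68 to 1.69. The low CIA_B value rests on the shallowest library, in which miR-34c-5p had no read. Leaving out 1 library moved these values to between 0.04 and 4.94, -0.27 and 4.92, and 0.25 and 5.16, the highest each time without CIA_B replicate 2. miR-449a-5p lay between 0.865 and 3.62 cpm, and its log2 fold changes over CIA_B were 0.84, 0.12 and 0.32 in the same order, with standard errors of 1.47 to 1.49. These errors include the spread between the MS_E libraries. In the fit without MS_E replicate 1 they were 1.03 for miR-34c-5p and 0.70 to 0.73 for miR-449a-5p, the log2 fold changes were 0.81, 0.75 and 1.02 for miR-34c-5p and 0.82, 0.10 and 0.29 for miR-449a-5p, and again none was called.

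miR-34a-5p was read in every library and is described next. It was counted 11 and 119 times in CIA_B, 274 and 190 times in MS_E, 206 and 226 times in PLA_E, 228 and 166 times in MS_A, and 81 and 392 times in PLA_A. The levels were 9.52 and 17.5 cpm in CIA_B, 42.3 and 29.7 cpm in MS_E, 27.6 and 62.3 cpm in PLA_E, 54.1 and 20.2 cpm in MS_A, and 20.2 and 71.5 cpm in PLA_A. Both CIA_B libraries were lower than all 8 libraries taken after therapy or placebo began, a pattern that 12 of the 359 tested miRNAs (3.34%) showed. The 4 later groups overlapped one another. The group means were 13.5 ± 5.64 cpm in CIA_B, 36.0 ± 8.93 in MS_E, 45.0 ± 24.6 in PLA_E, 37.2 ± 23.9 in MS_A and 45.8 ± 36.3 in PLA_A (SD, n = 2 libraries each), and in their order PLA_A, PLA_E, MS_A, MS_E and CIA_B no neighbours among the first 4 differed beyond their spread.

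The log2 fold change of miR-34a-5p over CIA_B was 1.36 for MS_E, 1.67 for PLA_E, 1.40 for MS_A and 1.71 for PLA_A (standard error 0.76 each), and it was not called in any of the 4 comparisons. The unadjusted p was 0.106, 0.0558, 0.0973 and 0.0523 in edgeR, and the adjusted p was 0.830, 0.994, 0.994 and 0.543. These comparisons share the CIA_B libraries. Markers of other cells also differed from CIA_B, not all of them in 1 direction. The 5 leukocyte miRNAs summed to 1648 and 1638 cpm in CIA_B and to more in all 8 later libraries (1975 to 14583 cpm, the highest in PLA_A replicate 1), with median log2 fold changes over CIA_B of 1.02 for MS_E, 0.96 for PLA_E, 1.10 for MS_A and 2.88 for PLA_A, and 1, 0, 1 and 3 of the 5 called higher. The 2 erythroid miRNAs had medians of 1.24, 0.96, 1.37 and 1.93 in the same order, with 1 called in MS_E and 1 in PLA_A, and the 6 tested epithelial miRNAs 3.72, 0.72, 0.81 and 1.19, with 4 called in MS_E. Of the 6 muscle miRNAs 2 were called lower in MS_E and none in the other 3. The list values for MS_E were not taken without MS_E replicate 1. The epithelial sum was 656 cpm in that library and 93.0 cpm in MS_E replicate 2. The erythroid sum was 84.4 and 21.2 cpm in these libraries, beside 20.8 and 14.7 cpm in CIA_B. The part of these cells in the miR-34a-5p result was not tested. The share of all miRNAs called was 0.557% for PLA_E, 1.11% for MS_A and 6.96% for PLA_A, and the median log2 fold change of all tested miRNAs lay between 0.06 and 0.11 in the 4 comparisons. The study lists miR-34a for PLA_E, chosen on these samples, so its value there is not independent evidence.

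The 2 libraries of a group differed in miR-34a-5p in 1 direction in every group. It was higher in the library with less miR-1-3p in 5 of 5 groups, by 1.84 times in CIA_B, 1.43 in MS_E, 2.26 in PLA_E, 2.67 in MS_A and 3.54 in PLA_A, and 50 of the 359 tested miRNAs (13.9%) did the same. miR-34c-5p was also higher on that side in 5 of 5 groups, but in PLA_A by only 1.06 times, in PLA_E by 1.88, in MS_A by 3.51, in CIA_B at 10.4 cpm against no read, and in MS_E in the library for which the families were chosen. miR-449a-5p was higher there in CIA_B (1.70 times) and in MS_E, and lower in the other 3 groups. Within the libraries with more miR-1-3p, miR-34a-5p exceeded its CIA_B level by 3.12 times in MS_E, 2.90 in PLA_E, 2.13 in MS_A and 2.12 in PLA_A. Within those with less miR-1-3p it exceeded it by 2.42, 3.56, 3.09 and 4.08 times. Each of these is 1 library over 1, and since both CIA_B libraries were the lowest of all, no such ratio could fall under 1.

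With the division by miR-1-3p as a term of the fit, miR-34a-5p was called higher in all 4 comparisons with CIA_B. Its log2 fold change was then 1.49 for MS_E, 1.68 for PLA_E, 1.36 for MS_A and 1.60 for PLA_A, with unadjusted p of 0.00675, 0.00344, 0.0104 and 0.00465 and adjusted p of 0.176, 0.992, 0.848 and 0.296 in edgeR. The share of all miRNAs called rose with the term too, to 11.4%, 2.51%, 2.79% and 13.1% in the same order. Single libraries also moved the values of the fit without the term. The lower CIA_B level rests on 11 reads in the shallowest library, and without that library the log2 fold changes were 0.98, 1.26, 0.96 and 1.33, none of them called. Over all libraries left out in turn they ran from 0.98 to 1.88 for MS_E, 0.98 to 2.19 for PLA_E, 0.56 to 1.92 for MS_A and 0.40 to 2.32 for PLA_A, the lowest of the last 3 without PLA_E replicate 2, MS_A replicate 1 and PLA_A replicate 2.

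**Figure D4:**
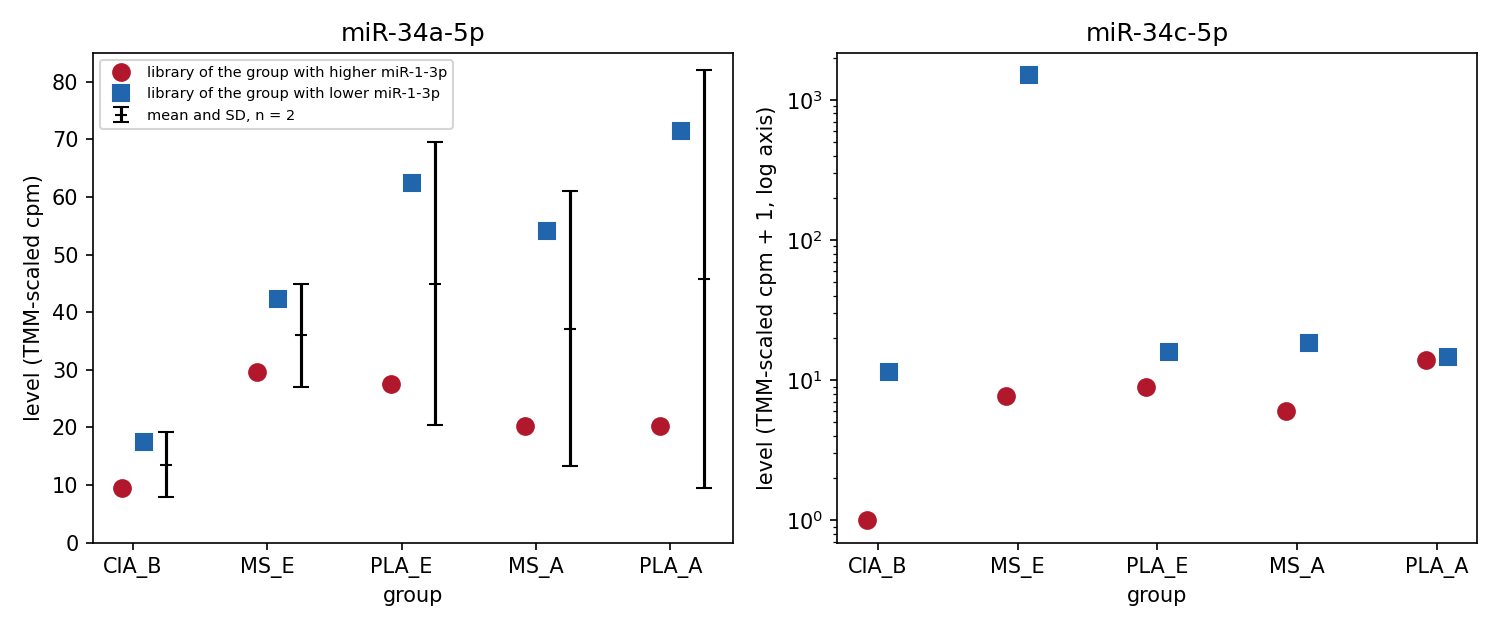
Levels of miR-34a-5p (left, TMM-scaled cpm) and miR-34c-5p (right, TMM-scaled cpm + 1, log axis) in the 5 groups; each point is a library, circles those with more and squares those with less miR-1-3p, and black bars at left the mean and SD of 2 libraries. miR-34a-5p is below 18 cpm in both CIA_B libraries and from 20.2 to 71.5 cpm in the other 8.

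No difference of miR-34a-5p between stimulation and placebo, or between the times, passed a test. Over both times the 4 stimulated libraries were at 36.6 ± 14.8 cpm and the 4 placebo libraries at 45.4 ± 25.3 cpm (SD, n = 4 each), a difference of -0.21 in mean log2(cpm + 1) with an exact two-sided permutation p of 0.686, and with library size alone -0.52 with p of 0.200. The 4 libraries at 34 days were at 41.5 ± 25.6 cpm and the 4 at 1 h at 40.5 ± 16.0 cpm (SD, n = 4 each), while the means of log2(cpm + 1) ran the other way, 5.19 at 34 days and 5.30 at 1 h, a difference of -0.11 with an exact permutation p of 0.857. Adjusted over these 2 tests both p were 0.857, and the smallest p that 4 against 4 allows is 0.0286. In edgeR the log2 fold change was -0.32 (standard error 0.74) for MS_E against PLA_E and -0.30 (standard error 0.74) for MS_A against PLA_A, where 1.95% of all miRNAs were called, and the interaction was 0.01 (standard error 1.04). These standard errors leave room for differences of more than 2-fold in either direction.

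Other miRNAs linked to p53 were taken from a list of 9, all of them in the files and tested. In MS_E against CIA_B 2 of 9 were called higher and none lower, where 5.29% of all miRNAs were called higher. These were miR-141-3p (5.29, standard error 1.55) and miR-200c-3p (4.32, standard error 1.59, log2), which are also 2 of the 8 epithelial names and were highest in MS_E replicate 1. In MS_E against PLA_E miR-141-3p was the only one called, at 4.62, and in the interaction it was called lower, at -6.31. miR-141-3p and miR-200c-3p were at higher levels in MS_E replicate 1 (220 and 14.7 cpm) than in MS_E replicate 2 (3.43 and 3.90 cpm). In PLA_E, MS_A and PLA_A against CIA_B and in MS_A against PLA_A none of the 9 was called. The other 7, miR-192-5p, miR-194-5p, miR-215, miR-145-5p, miR-143-3p, miR-16-5p and miR-107-3p, were called nowhere in this fit. Without MS_E replicate 1 miR-141-3p was at 0.33 and miR-200c-3p at 3.05 over CIA_B in MS_E. miR-141-3p was then at -0.32 in MS_E against PLA_E and at -1.32 in the interaction. MS_E is 1 library in that fit, so for MS_E only sizes are given. miR-145-5p was at 1.60 in MS_E against CIA_B, and miR-215 at -2.79 in MS_E against PLA_E. Between other groups that fit called miR-141-3p at unadjusted p in edgeR. It was higher in PLA_A against CIA_B (2.51), where 8.36% of all miRNAs were called, and lower in MS_A against PLA_A (-1.64), where 1.95% were. The median log2 fold change of the list over CIA_B was 0.36 for MS_E, 0.17 for PLA_E, -0.23 for MS_A and -0.08 for PLA_A, beside 0.06, 0.07, 0.10 and 0.11 over all tested miRNAs.

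The miRNAs whose levels followed those of the members most closely were found by Pearson correlation of log2(cpm + 1), as a description over libraries that share depth and tissue make-up. Over the 10 libraries the 5 closest to miR-34c-5p were miR-298-5p (r = 0.93), miR-200b-3p (0.89), miR-141-3p (0.89), miR-375-3p (0.88) and miR-92a-3p (0.83), and each was highest in MS_E replicate 1. Over the 9 libraries without it they were miR-361-3p (0.94), miR-27a-5p (0.92), miR-3559-5p (0.92), miR-152-5p (0.89) and miR-203a-3p (0.89), so the first list rested on that library. For miR-34a-5p over the 10 libraries they were miR-672-5p (0.83), miR-582-3p (0.82), miR-187-3p (0.82), miR-21-5p (0.77) and miR-1839-5p (0.77). miR-34a-5p and miR-34c-5p had r = 0.51 over the 10 libraries and 0.76 over the 9. miR-34a-5p and miR-449a-5p had 0.19 and 0.05. None of these correlations was taken without CIA_B replicate 1, the shallowest library, so how far they rest on it is not known. In that library miR-34c-5p had no read, and miR-34a-5p (9.52 cpm) and miR-203a-3p (11.2 cpm) were at their lowest.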

How the data were processed

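Small RNA libraries were prepared by the authors with the TruSeq kit, sequenced on an Illumina HiSeq and de-multiplexed with CASAVA 1.8. Per the paper's methods and the labels, adapters were clipped with mapper.pl of miRDeep2, reads under 18 nt were discarded, and reads were aligned to rn4 and to rat miRBase sequences and quantified by miRDeep2. The deposited counts are whole reads per mature miRNA and precursor, not normalized. The largest count over precursors was used; for no member did this differ from the sum. Near-identical arms may share reads. A joint table was left out, since the names of its 20 value columns could be matched to no library.

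TMM factors and the quasi-likelihood test (all 10 libraries, 1 mean per group, prior count 2, 1 cpm by library size alone reached in 5 or more libraries) came from edgeR 4.0.16 (R 4.3.3), with Benjamini-Hochberg adjustment over the 359 miRNAs tested. Alternatives used limma 3.58.1 (voom) and DESeq2 1.42.0, DESeq2 size factors, library size only, no filter, summed precursors, a fit of 4 libraries alone, a replicate block, a miR-1-3p term and each library left out. The script was tested on simulated data. No libraries of a group were duplicates, since their counts differed by a chi-square of 1797 to 8500 for each degree of freedom. Sequences and positions are from RefSeq (GRCr8). Tables and figures used scipy 1.17.1, numpy 2.4.6, pandas 2.3.3 and matplotlib 3.10.9 under Python 3.11.15.

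The members and lists were chosen with earlier results of these data known. Named miRNAs are all members, listed markers, the 5 largest ratios in MS_E replicate 1 and the 5 closest by correlation. The chromosome X cluster, miR-202 and the fold changes of miR-34c-5p and miR-449a-5p under the alternatives, and the p53-linked list without MS_E replicate 1, were added after the values were seen.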

Additional observations from a re-analysis of the deposited data

Results flagged for a closer look

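In the test of whether the change from 1 h to 34 days differed between stimulation and placebo, miR-34c-5p (log2 difference -6.25) and miR-449a-5p (-5.67) passed the unadjusted thresholds of the study and not the adjusted one in edgeR. Both values rest on MS_E replicate 1, the library for which the families were chosen, and without it they were 0.50 and 0.73, with MS_E left as 1 library.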

How the results depend on the processing

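With 2 libraries a group, depth limits most the members under about 1 cpm and CIA_B replicate 1, where 3 reads are 2.60 cpm. A fit with a library left out holds 1 group of 1 library, whose spread is taken from the other groups. Over each library left out in turn the members called numbered 0 to 2 in MS_E against CIA_B, in MS_E against PLA_E and in the interaction, 0 to 1 in PLA_E and in PLA_A against CIA_B, and 0 in MS_A against CIA_B and in MS_A against PLA_A. The counts of 0 in the first 3 came without MS_E replicate 1, for MS_E against PLA_E also without PLA_E replicate 2, and for the interaction also without either library of PLA_E, MS_A or PLA_A. limma-voom called 0 members in these 3, and without the filter 6, 6 and 4 were called, beside 6.56%, 5.01% and 2.59% of all miRNAs and with the added arms read almost only in MS_E replicate 1. For the interaction, the miR-1-3p term left 1. In PLA_E and PLA_A against CIA_B 1 member, miR-34a-5p, was called under DESeq2, library size only, the miR-1-3p term and only the 4 libraries compared, for PLA_A also without the filter, and in MS_A against CIA_B 1 under the miR-1-3p term. Leaving out PLA_E replicate 1, PLA_A replicate 1 or PLA_A replicate 2 also called it in PLA_E, and leaving out PLA_A replicate 1 in PLA_A. The cause was not tested.

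The replicate numbers do not pair the libraries (correlation of deviations -0.54 to 0.59, below 0 in 6 of 10 pairs of groups). The replicate block left 0 members called in the interaction and changed no other count of members. The counts over all miRNAs moved with the settings, from 23 to between 16 and 41 in MS_E against CIA_B, from 2 to between 1 and 9 in PLA_E, from 4 to between 2 and 12 in MS_A, from 25 to between 9 and 47 in PLA_A, from 14 to between 7 and 35 in MS_E against PLA_E, from 7 to between 1 and 14 in MS_A against PLA_A and from 12 to between 3 and 17 in the interaction.

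The miR-34a-5p difference of stimulation from placebo ran from -0.53 to 0.0658 with libraries left out, turning to 0.0012 without PLA_E replicate 2, 0.03 without MS_A replicate 2 and 0.0658 without PLA_A replicate 2. That of 34 days from 1 h ran from -0.43 to 0.16, turning to 0.12 without PLA_E replicate 2, 0.16 without MS_A replicate 2 and 0.16 without PLA_A replicate 1. In edgeR its log2 fold change ran from -0.79 to 0.39 (without PLA_E replicate 2) in MS_E against PLA_E, and from -1.16 to 0.94 in MS_A against PLA_A, with 0.13 without MS_A replicate 2 and 0.94 without PLA_A replicate 2. Against CIA_B it stayed positive in all 4 comparisons under every alternative run, but single libraries moved it to as low as 0.40 (PLA_A without PLA_A replicate 2) and as high as 2.32 (PLA_A without PLA_A replicate 1). The miR-34c-5p log2 fold change ran from -0.27 (without MS_A replicate 1) to 4.92 in MS_A against CIA_B, with -0.02 without CIA_B replicate 1, from -0.78 (without MS_E replicate 1) to 7.0 in MS_E against PLA_E, and from -1.30 to 0.33 (without MS_A replicate 2) in MS_A against PLA_A. That of miR-449a-5p ran from -0.10 (without MS_E replicate 1) to 7.28 in MS_E against CIA_B, from -0.38 (without MS_A replicate 2) to 0.53 in MS_A against CIA_B, with -0.10 without CIA_B replicate 1, from -0.91 (without MS_E replicate 1) to 6.45 in MS_E against PLA_E, and from -0.67 to 0.14 (without MS_A replicate 1) in MS_A against PLA_A.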
